A study of Mus musculus with 34 samples.

Results

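The genes described here are 10 readouts and ligands of bone morphogenetic protein (BMP) signalling, Id1, Id2, Id3, Smad6, Smad7, Bambi, Msx1, Msx2, Bmp2 and Bmp4. They were given as a list of symbols, and all 10 were found among the 53655 genes of both deposited count tables. The data were RNA-seq of mouse epiblast stem cells (EpiSC), which are pluripotent cells in the primed state, in 17 libraries, and of definitive endoderm (DE) derived from EpiSC lines, in 17 more. The question was how the transcripts of this pathway stood in endoderm made with a BMP receptor inhibitor, and how far they varied with strain.

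BMP ligands such as BMP2 and BMP4 bind pairs of type I and type II receptor kinases, which phosphorylate the transcription factors SMAD1, SMAD5 and SMAD9. These enter the nucleus with SMAD4 and switch on targets that include the Id genes, whose products block basic helix-loop-helix factors. Several other targets feed back on the pathway: SMAD6 and SMAD7 are inhibitory SMADs, and BAMBI is a membrane decoy receptor. In the early embryo BMP signalling favours mesodermal and extraembryonic fates, and inhibitors of its receptors are used to steer cells towards definitive endoderm. SMAD7 and BAMBI are also targets of TGF-beta and activin signalling, and BAMBI is a target of WNT signalling.

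The EpiSC medium held FGF, 20 ng/mL of activin and an inhibitor of tankyrase, and the cells sat on a feeder layer of irradiated embryonic mouse fibroblasts. For DE, cells were plated on laminin for 5 h, given 3 uM of the GSK3 inhibitor CHIR with activin at 40 ng/mL for 16 h, and then activin at 100 ng/mL with 100 nM LDN-193189, an inhibitor of BMP type I receptors, for 24 h. Cells bearing CXCR4 were then taken with magnetic beads. Every DE library came from cells given LDN-193189, so its effect cannot be told apart from the rest of the differentiation. No engineered allele is named in the labels, and the genotypes are inbred strains. C57BL/6J gave 5 lines in each cell type, and WSB/EiJ, NZO/HiLtJ and NOD/ShiLtJ gave 2 lines in each. PWK/PhJ gave 3 lines in EpiSC and 4 in DE, CAST/EiJ gave 2 in EpiSC and 1 in DE, and DBA/2J gave 1 in each. Each library of a cell type is a separate line, so the p-values measure the spread between lines, and 16 of the 18 lines gave both cell types.

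The total count per library ran from 25584647 to 33831684 in EpiSC and from 23772045 to 67722013 in DE, and levels are given as CPM, the count scaled by the library total. A stranded polyA kit was used for EpiSC and a low-input kit with 12 cycles of amplification for DE, so kit and cell type cannot be told apart. The cell type labels were checked against markers. The summed level of 5 pluripotency genes was 526.7 to 990 CPM in EpiSC and 4.72 to 126 CPM in DE, and that of 8 endoderm genes was 105 to 1411 CPM in EpiSC and 1393 to 13089 CPM in DE. Cxcr4, the gene of the sort, is one of those 8. A list of 15 fibroblast genes summed to 86.1 to 4248 CPM in EpiSC and to 116 to 1688 CPM in DE, with 0 to 1 of the 15 at 0 in an EpiSC library and 0 to 5 in a DE library. Both DE libraries of NOD/ShiLtJ stood apart, with 1638 and 1688 CPM of fibroblast genes and 1393 and 3816 CPM of endoderm genes. In bulk RNA, fewer cells of a type and less RNA per cell cannot be told apart.

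Promoter sequences are shown for 3 members that moved in different directions between the cell types, since SMAD proteins are known to bind the box GTCT and its reverse complement AGAC, the palindrome GTCTAGAC and the GC-rich motif GGCGCC. Each is the stretch from 250 bases before to 50 bases after the start in RefSeq (build GRCm38.p6), 5′ to 3′ on the gene's strand. Smad6 lies at chr9:64022010-64022309 on the minus strand, Id3 at chr4:136143572-136143871 on the plus strand and Id2 at chr12:25096043-25096342 on the minus strand. Capitals mark every match to these motifs, and the palindrome counts as 1 match of the box on each strand.
Smad6: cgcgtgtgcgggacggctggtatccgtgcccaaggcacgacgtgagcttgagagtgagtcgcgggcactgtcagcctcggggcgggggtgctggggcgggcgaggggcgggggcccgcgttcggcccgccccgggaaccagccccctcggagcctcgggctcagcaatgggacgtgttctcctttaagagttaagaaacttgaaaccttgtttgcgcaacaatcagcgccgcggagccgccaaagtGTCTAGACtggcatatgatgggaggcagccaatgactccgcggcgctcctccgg
Id3: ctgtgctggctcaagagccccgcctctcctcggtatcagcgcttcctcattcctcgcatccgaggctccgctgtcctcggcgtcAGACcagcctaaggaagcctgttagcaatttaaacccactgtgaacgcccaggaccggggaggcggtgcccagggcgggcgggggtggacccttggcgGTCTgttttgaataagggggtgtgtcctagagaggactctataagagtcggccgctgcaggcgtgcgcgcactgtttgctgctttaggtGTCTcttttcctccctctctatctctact
Id2: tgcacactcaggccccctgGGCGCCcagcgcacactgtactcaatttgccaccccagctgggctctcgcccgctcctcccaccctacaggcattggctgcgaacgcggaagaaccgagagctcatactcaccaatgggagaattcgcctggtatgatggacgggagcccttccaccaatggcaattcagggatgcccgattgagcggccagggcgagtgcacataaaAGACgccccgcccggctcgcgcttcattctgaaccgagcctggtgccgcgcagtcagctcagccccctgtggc
The Smad6 window holds GTCTAGAC 1 time, which 0.213% of the 32851 promoters of the table do. The Id2 window holds GGCGCC 1 time and AGAC 1 time, and GGCGCC is in 11.9% of all promoters. The Id3 window holds GTCT or AGAC 3 times, and 64.8% of all promoters hold at least 2 such matches. Both strands were searched, and 6 of the 10 members had an entry in the table. These are matches of letters, and no binding was measured.

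Of the 10 members, 6 passed the test between the cell types (edgeR's quasi-likelihood test over 20907 genes with Benjamini-Hochberg adjustment, threshold 0.05), 4 of them higher and 2 lower in DE. Over all genes tested 77.2% passed, 37.3% higher and 39.9% lower, so a count of 6 is not above the background. Bmp2, Id3, Bambi and Smad6 rose and Smad7 and Id2 fell. Id1, Bmp4, Msx1 and Msx2 did not pass. In 5 members (Bmp2, Id3, Bambi, Smad6 and Smad7) the 17 DE libraries did not overlap the 17 EpiSC libraries, 4 of them lying above and 1 below. That was so for 19% of all genes tested, 9.34% above and 9.66% below. The median log2 fold over the 10 members was 0.76, against -0.06 over all genes tested.

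**Figure D1:**
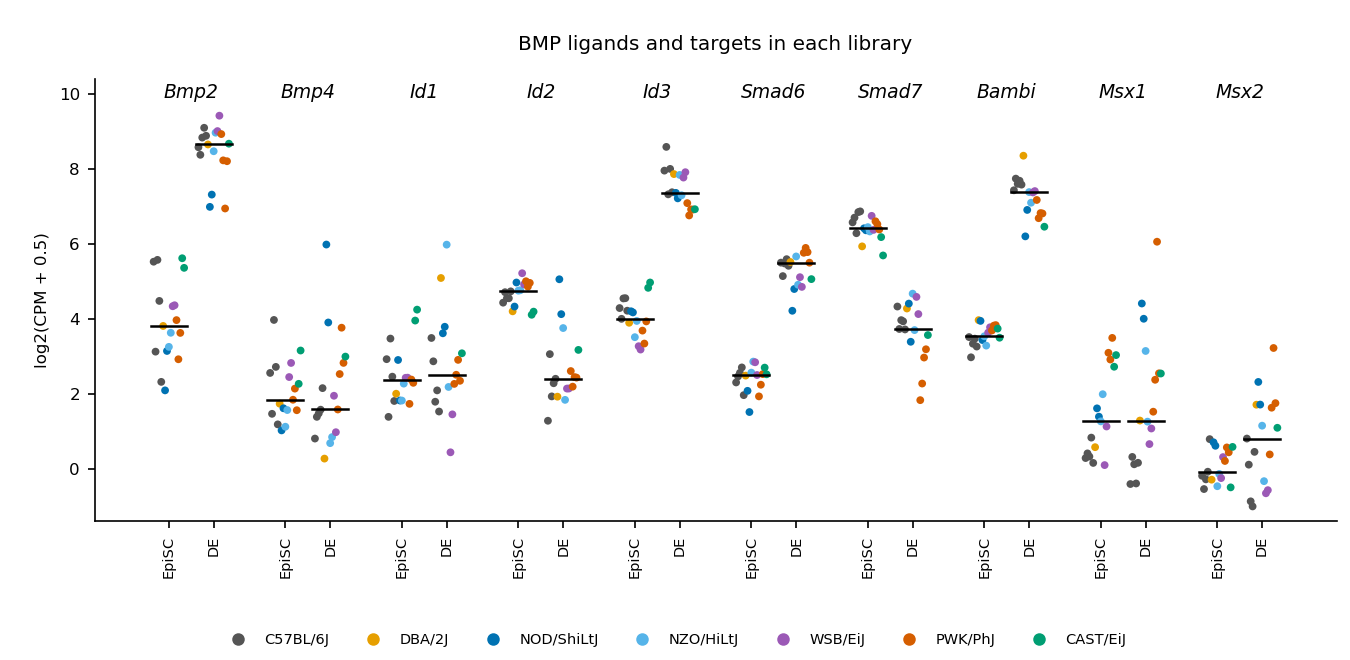
Level of each of the 10 genes in each library as log2(CPM + 0.5), EpiSC on the left and DE on the right of each pair, 17 libraries each, coloured by strain, with a bar at the median. Bmp2, Id3, Smad6 and Bambi lie higher in DE with no overlap, Smad7 lies lower with no overlap, and Id1, Id2, Bmp4, Msx1 and Msx2 overlap, Id2 through the NOD/ShiLtJ lines.

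Among the ligands, Bmp2 (chromosome 2, 133552159 to 133562885) had the largest fold of the 10 members. Its level was 3.78 CPM at the lowest, 13.6 CPM at the median and 48.8 CPM at the highest in EpiSC, and 123, 404 and 688 CPM in DE. The lowest DE library was above the highest EpiSC library, and within lines the ratio of DE to EpiSC ran from 8.39 to 105 with a median of 31.0. The log2 fold was 4.48 ± 0.28 (SE, n = 17 and 17; adjusted p = 4.38e-15, edgeR's quasi-likelihood test). DE was above EpiSC within 16 of 16 lines. Bmp4 (chromosome 14, 46383520 to 46390669) had a level of 1.54, 3.1 and 15.2 CPM (lowest, median, highest) in EpiSC and of 0.711, 2.50 and 63.0 CPM in DE. Its cell types overlapped, 10 of 16 lines were lower in DE, and the log2 fold of -0.23 ± 0.44 did not pass (adjusted p = 0.640, edgeR). Within the 5 C57BL/6J lines alone the log2 fold of Bmp4 was -1.34 (adjusted p = 0.0481, edgeR). In the 16 lines with both libraries, the ratio of DE to EpiSC of Bmp4 ran from 0.151 to 40.9. In its exons, 89 bases are shared with Gm15217, a gene on the opposite strand, and the strand setting of the counting is not given in the sources used here.

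The 3 Id genes did not move together. Id3 (chromosome 4, 136143497 to 136145755), whose promoter is shown above, had a level of 8.60, 15.6 and 31.0 CPM (lowest, median, highest) in EpiSC and of 108, 165 and 386 CPM in DE. It rose by a log2 fold of 3.54 ± 0.17 (adjusted p = 2.38e-18, edgeR), with no overlap and in 16 of 16 lines. Id2 (chromosome 12, 25093799 to 25097140) had a level of 16.8, 26.2 and 36.8 CPM in EpiSC and of 1.94, 4.8 and 32.9 CPM in DE. The log2 fold of Id2 was -2.11 ± 0.23 (adjusted p = 1.03e-09, edgeR), and it was lower in 15 of 16 lines. The exception was the NOD/ShiLtJ line AC576, where Id2 was 19.7 CPM in EpiSC and 32.9 CPM in DE. Id1 (chromosome 2, 152736251 to 152737410) had a level of 2.12, 4.72 and 18.5 CPM in EpiSC and of 0.860, 5.21 and 62.8 CPM in DE, and 9 of 16 lines were higher in DE. Its log2 fold of 0.44 ± 0.40 did not pass (adjusted p = 0.306, edgeR). The DE libraries of Id1 spanned a ratio of 73.1 from lowest to highest, against 8.74 in EpiSC.

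Of the feedback inhibitors, 2 rose and 1 fell. Smad6 (chromosome 9, 63953076 to 64022059), an inhibitory SMAD that acts chiefly on BMP signalling, was at 2.36, 5.18 and 6.78 CPM in EpiSC and at 18.1, 44.2 and 59.1 CPM in DE (lowest, median, highest). Its log2 fold was 2.98 ± 0.12 (adjusted p = 1.13e-19, edgeR), higher in 16 of 16 lines. Smad7 (chromosome 18, 75367529 to 75395935), an inhibitory SMAD that acts on both BMP and TGF-beta receptors, was at 51.4, 85.2 and 117 CPM in EpiSC and at 3.07, 12.8 and 25.1 CPM in DE. Its log2 fold was -2.78 ± 0.18 (adjusted p = 3.53e-15, edgeR), lower in 16 of 16 lines, so the paired inhibitory SMADs moved in opposite directions. Bambi (chromosome 18, 3507923 to 3516404) was at 7.38, 11.1 and 15.2 CPM in EpiSC and at 73.3, 166 and 328 CPM in DE. It rose by a log2 fold of 3.66 ± 0.14 (adjusted p = 3.51e-20, edgeR), in 16 of 16 lines and without overlap.

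The homeobox genes Msx1 and Msx2, BMP targets in limb, neural crest and tooth, were low in both cell types. Msx1 (chromosome 5, 37820485 to 37824583) was at 0.574, 1.91 and 10.8 CPM in EpiSC and at 0.257, 1.95 and 66.4 CPM in DE (lowest, median, highest), with a log2 fold of 0.53 ± 0.39 (adjusted p = 0.220, edgeR). Msx2 (chromosome 13, 53466884 to 53473074) was at 0.189, 0.450 and 1.24 CPM in EpiSC and at 0, 1.25 and 8.87 CPM in DE, with a log2 fold of 1.00 ± 0.47 (adjusted p = 0.0556, edgeR). Msx2 rested on 5 to 35 counts per library in EpiSC and 0 to 216 in DE. Its call depended on the settings, with adjusted p = 0.0265 in DESeq2, 0.0427 with a stricter filter on low counts and 0.00744 without a strain term. Leaving out single libraries also moved Msx2 past the threshold in 9 of 34 cases. The lowest adjusted p, 0.0181, was without the EpiSC library of C57BL/6J line 5-1. Msx1 and Msx2 spanned wide ranges in DE, and the single highest library of both was the PWK/PhJ line AC699.

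The summed fibroblast level had a median of 1784 CPM in EpiSC and 326 CPM in DE. With that level as a covariate the same 6 members passed, and they passed with the cell line as a block.

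As RPKM, which is CPM divided by the exon length in kilobases, the order of the 10 genes differed between the cell types. In EpiSC, Smad7 was highest with a median of 18.8 RPKM, followed by Id2 with 10.7, Id3 with 8.69, Id1 with 4.07 and Bmp2 with 3.82 RPKM. In DE, Bmp2 was highest with a median of 113.5 RPKM, followed by Id3 with 91.9, Bambi with 32.7, Smad6 with 13.8 and Id1 with 4.49 RPKM. The ranges of neighbours in these orders overlapped in every case: Smad7 in EpiSC ran from 11.4 to 25.8 and Id2 from 6.90 to 15.1 RPKM, and Bmp2 in DE ran from 34.6 to 193 and Id3 from 60.4 to 215.5 RPKM. Msx2 was last in both, with medians of 0.137 RPKM in EpiSC and 0.382 RPKM in DE. Exon lengths were those of GENCODE M21 and kits differ in coverage along a transcript, so these orders are a description within each cell type.

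In EpiSC, 2 of the 10 members, Id3 and Msx1, passed the F test over the 5 strains with at least 2 lines in both cell types (C57BL/6J, PWK/PhJ, NOD/ShiLtJ, NZO/HiLtJ and WSB/EiJ), while 40% of all genes tested passed. All strain contrasts share the 5 C57BL/6J lines as the reference. Every strain was aligned to the C57BL/6J genome, so a difference in alignment cannot be told apart from one in expression. Lines of C57BL/6J and DBA/2J carry plain numbers and all others AC or WM codes, and whether the lines were derived together is not given in the sources used here.

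Msx1 differed most in EpiSC (F = 29.3, adjusted p = 4.2e-05, edgeR's quasi-likelihood test). The C57BL/6J lines 1, 2, 4, 44 and 5-1 had 0.723, 0.833, 0.758, 1.28 and 0.618 CPM. The PWK/PhJ lines had 8.07, 7.07 and 10.8 CPM and the CAST/EiJ lines 6.12 and 7.71 CPM, all above every line of the other 5 strains. The log2 fold against C57BL/6J was 3.28 ± 0.33 in PWK/PhJ (adjusted p = 6.6e-06, edgeR) and 2.96 ± 0.35 in CAST/EiJ (adjusted p = 3.7e-05, edgeR). The NOD/ShiLtJ lines (2.57 and 2.13 CPM) and the NZO/HiLtJ lines (1.91 and 3.48 CPM) also lay above all C57BL/6J lines. Their log2 folds were 1.5 ± 0.37 (adjusted p = 0.0195) and 1.67 ± 0.37 (adjusted p = 0.0176, edgeR). These last calls rested on single lines, with adjusted p = 0.123 without the NOD/ShiLtJ line AC576 and 0.312 without the NZO/HiLtJ line AC671.

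Id3 differed in EpiSC with F = 12.4 (adjusted p = 0.00159, edgeR's quasi-likelihood test). The C57BL/6J lines had 19.1, 15.6, 22.9, 23.0 and 18.2 CPM. The WSB/EiJ lines had 9.18 and 8.60 CPM, the PWK/PhJ lines 12.4, 9.67 and 14.8 CPM, and the CAST/EiJ lines 28.0 and 31.0 CPM. WSB/EiJ and PWK/PhJ lay below all C57BL/6J lines and CAST/EiJ above them. The log2 fold was -1.18 ± 0.20 in WSB/EiJ (adjusted p = 0.00213, edgeR), -0.75 ± 0.17 in PWK/PhJ (adjusted p = 0.00414) and 0.51 ± 0.18 in CAST/EiJ (adjusted p = 0.0443).

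CAST/EiJ, wild-derived like PWK/PhJ and WSB/EiJ, had 5 of 10 members past the threshold in EpiSC, against 31.6% of all genes tested. Besides Msx1 and Id3 these were Id1, at 15.1 and 18.5 CPM against 2.12 to 10.6 CPM in C57BL/6J, Id2, at 16.8 and 17.8 CPM against 21.2 to 26.2 CPM, and Smad7, at 72.3 and 51.4 CPM against 77.8 to 117 CPM. The groups did not overlap in any of these. The log2 folds were 1.52 ± 0.47 for Id1 (adjusted p = 0.0246), -0.52 ± 0.15 for Id2 (adjusted p = 0.017) and -0.78 ± 0.17 for Smad7 (adjusted p = 0.0038, edgeR). The calls of Id1, Id2 and Id3 were lost without either CAST/EiJ line, and that of Smad7 without WM080 (adjusted p = 0.0912). Id3 also lost its call without any of 6 other single libraries, with no filter on low counts (adjusted p = 0.0675) and with the fibroblast level as a covariate (0.0547), and Id1 with no filter (0.0639). Without WM080 the adjusted p was 0.153 for Id1, 0.0923 for Id2 and 0.242 for Id3, and without WM078 it was 0.0754, 0.119 and 0.122. Markers of other cell types moved with these calls. In the CAST/EiJ lines WM078 and WM080 endoderm genes summed to 1411 and 1186 CPM, against 153 to 396 CPM in C57BL/6J, and surface ectoderm and amnion genes to 21.6 and 36.1 CPM, against 3.02 to 12.7 CPM. Pluripotency genes summed to 635 and 526.7 CPM, below the 637 to 989 CPM of C57BL/6J. The part of these lists in the CAST/EiJ differences was not tested. In the other contrasts, 2 members passed in PWK/PhJ (29.8% of all genes), 1 in NOD/ShiLtJ (12.9%), 1 in NZO/HiLtJ (5.52%) and 1 in WSB/EiJ (7.41%).

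**Figure D2:**
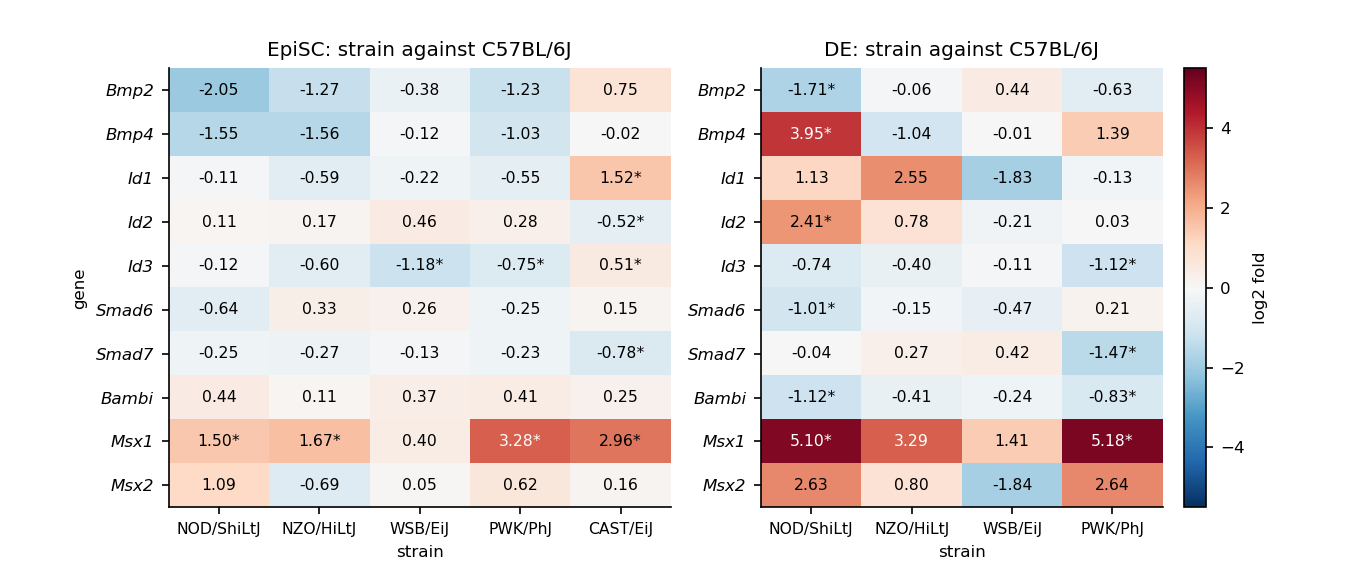
Log2 fold of each of the 10 genes (vertical) in each strain against C57BL/6J (horizontal), on the left in EpiSC and on the right in DE, with an asterisk where the adjusted p was under 0.05. Msx1 carries asterisks in both cell types, from a log2 fold of 1.5 in NOD/ShiLtJ EpiSC to 5.18 in PWK/PhJ DE, the latter 2.95 without line AC699.

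In DE, 9 of the 10 members passed the F test over the 5 strains, against 22.3% of all genes tested. The exception was Msx2 (F = 4.15, adjusted p = 0.0727 by edgeR's quasi-likelihood test, 0.00621 in DESeq2). The F values ran from 6.03 for Id3 (adjusted p = 0.0255) to 19.4 for Bmp4 (adjusted p = 0.000328, edgeR). With the fibroblast level as a covariate, which was highest in both NOD/ShiLtJ lines, 6 members passed, and Bmp2 (adjusted p = 0.121), Bmp4 (0.159) and Id2 (0.085) did not. Without both NOD/ShiLtJ lines 6 passed as well, and Bmp2 (0.224), Id2 (0.665) and Smad6 (0.143) did not. For both of these fits the share of all genes is not given here, so their counts cannot be read against a background. Single lines also decided calls: Id1 was at adjusted p = 0.0600 without the NZO/HiLtJ line AC653, and Smad7 at 0.0612 without the PWK/PhJ line AC698. Without the NOD/ShiLtJ line AC576, Bmp2 was at 0.103, Id2 at 0.182 and Smad6 at 0.0769, and without AC595 Bmp2 was at 0.0678. Id3 lost its call without any of 5 single lines, the highest adjusted p being 0.0786 without AC698.

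NOD/ShiLtJ endoderm had 6 of 10 members past the threshold against C57BL/6J, with 11.4% of all genes. Bmp4 was at 63.0 CPM in line AC576 and 14.5 CPM in AC595, against 1.25, 2.12, 2.29, 2.49 and 3.96 CPM in C57BL/6J, a log2 fold of 3.95 ± 0.58 (adjusted p = 0.000762, edgeR). Bmp2 was at 127 and 159 CPM against 383, 333, 458, 550 and 474 CPM, a log2 fold of -1.71 ± 0.41 (adjusted p = 0.0133). In both ligands the groups did not overlap, Bmp4 lying above and Bmp2 below C57BL/6J. Msx1 was at 20.8 and 15.6 CPM against 0.257 to 0.749 CPM, with a log2 fold of 5.1 ± 0.96 (adjusted p = 0.00371). Id2 was at 32.9 and 17 CPM against 1.94 to 7.86 CPM, with a log2 fold of 2.41 ± 0.49 (adjusted p = 0.00563). These were likewise above all C57BL/6J lines. Bambi was at 73.3 and 120 CPM against 173 to 214 CPM, a log2 fold of -1.12 ± 0.20 (adjusted p = 0.00277). Smad6 was at 18.1 and 27.4 CPM against 34.9 to 47.9 CPM, a log2 fold of -1.01 ± 0.23 (adjusted p = 0.00947). Both feedback inhibitors were below all C57BL/6J lines.

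The markers moved with these differences. Fibroblast genes summed to 1638 and 1688 CPM in NOD/ShiLtJ endoderm against 116 to 331 CPM in C57BL/6J, with 0 of 15 at 0, endoderm genes to 1393 and 3816 CPM against 6011 to 13089 CPM, and pluripotency genes to 126 and 39.5 CPM against 4.72 to 25.5 CPM. Mesoderm genes summed to 248 and 353 CPM against 123 to 268 CPM. Those sums overlapped, but the mean log2(CPM + 0.5) of the same 9 genes did not. It was 2.81 and 3.27 in NOD/ShiLtJ against 0.985 to 1.51 in C57BL/6J, with 0 genes at 0 against 1 to 4. No other DE library had a fibroblast sum above 749.5 CPM, so this level and the strain can hardly be told apart. A lost call with the level as a covariate therefore cannot be assigned to either. In that fit none of the 6 members passed, the lowest adjusted p being 0.152, and 46 genes in all passed in place of 2191. The log2 folds there were 3.30 for Bmp4, -1.36 for Bmp2, 3.75 for Msx1, 2.01 for Id2, -1.08 for Bambi and -0.47 for Smad6. Each was smaller in size than without the covariate. Without line AC576 only Msx1 passed, and the log2 fold was 2.44 for Bmp4 (adjusted p = 0.0632) and 1.78 for Id2 (0.175). The adjusted p was 0.0915 for Bambi, 0.191 for Bmp2 and 0.211 for Smad6. Without AC595 the log2 fold of Bmp4 was 4.67, and Bmp2 did not pass (0.0673). The part of endoderm, pluripotency and mesoderm markers in these differences was not tested.

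PWK/PhJ endoderm had 4 of 10 members past the threshold, with 17.1% of all genes. Smad7 was at 3.07, 4.35, 7.35 and 8.65 CPM in lines AC695, AC698, AC699 and AC705, against 19.7, 12.8, 15.2, 14.8 and 12.7 CPM in C57BL/6J. Bambi was at 144, 103, 113 and 112 CPM against 173, 214, 195, 206 and 192 CPM, and Id3 at 136, 108, 121 and 121 CPM against 249, 386, 160, 257 and 166 CPM. In all 3 the PWK/PhJ lines lay below every C57BL/6J line. The log2 folds were -1.47 ± 0.33 for Smad7 (adjusted p = 0.00659), -0.83 ± 0.16 for Bambi (adjusted p = 0.00171) and -1.12 ± 0.24 for Id3 (adjusted p = 0.00514, edgeR). Smad7 did not pass with the fibroblast level as a covariate (log2 fold -1.26, adjusted p = 0.0782), and that level was 204 to 618 CPM in PWK/PhJ. Msx1 was at 2.38, 4.70, 66.4 and 5.36 CPM against 0.257, 0.749, 0.590, 0.264 and 0.620 CPM. All PWK/PhJ lines were above all C57BL/6J lines, with a log2 fold of 5.18 ± 0.90 (adjusted p = 0.001), and AC699 stood far above the other 3. Without AC699 the log2 fold was 2.95 (adjusted p = 0.00111, edgeR). AC699 also had the highest mesoderm sum of all DE libraries, 399.5 CPM, and the lowest endoderm sum of the 4 PWK/PhJ libraries, 5121 CPM. Its mean log2 level of mesoderm genes, taken as for NOD/ShiLtJ above, was not the highest. It was 2.31, below AC653 (3.73), AC595 (3.27) and AC576 (2.81). The mean log2 level of endoderm genes was 8.31 in AC699, again the lowest in PWK/PhJ, but within the 8.11 to 8.66 of C57BL/6J. Pluripotency genes summed to 37.8 to 76.1 CPM in the PWK/PhJ libraries and to 4.72 to 25.5 CPM in C57BL/6J, without overlap. The mean log2 level of the same genes did overlap, at 1.09 to 1.85 in PWK/PhJ and -0.011 to 1.62 in C57BL/6J. The part of pluripotency and mesoderm genes in these differences was not tested.

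In NZO/HiLtJ and WSB/EiJ endoderm 0 of the 10 members passed by edgeR, where 1.41% and 2.28% of all genes did. At an unadjusted p under 0.05, 2 members passed in each strain, Id1 and Msx1 in NZO/HiLtJ and Id1 and Smad6 in WSB/EiJ, against 11.4% and 12.1% of all genes. In DESeq2, for which the share of all genes is not given here, 2 members passed in NZO/HiLtJ and 0 in WSB/EiJ. The lines of NZO/HiLtJ differed from each other: Id1 was at 62.8 CPM in AC653, the highest of all 34 libraries, and at 4.06 CPM in AC671, and Msx1 was at 8.36 and 1.90 CPM. The log2 fold against C57BL/6J was 2.55 ± 0.69 for Id1 (adjusted p = 0.0928) and 3.29 ± 0.94 for Msx1 (adjusted p = 0.121). Mesoderm genes also differed between the NZO/HiLtJ lines. Their mean log2 level, taken as above, was 3.73 in AC653, the highest of all DE libraries, and 1.11 in AC671. It was 0.985 to 1.51 in C57BL/6J. Of the 9 genes, 0 were at 0 in AC653 and 3 in AC671, and their sums were 281 and 220 CPM. The part of mesoderm genes in these differences was not tested. In the single DBA/2J library Id1 was at 33.7 CPM and Bambi at 328 CPM, the highest Bambi level of all.

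**Figure D3:**
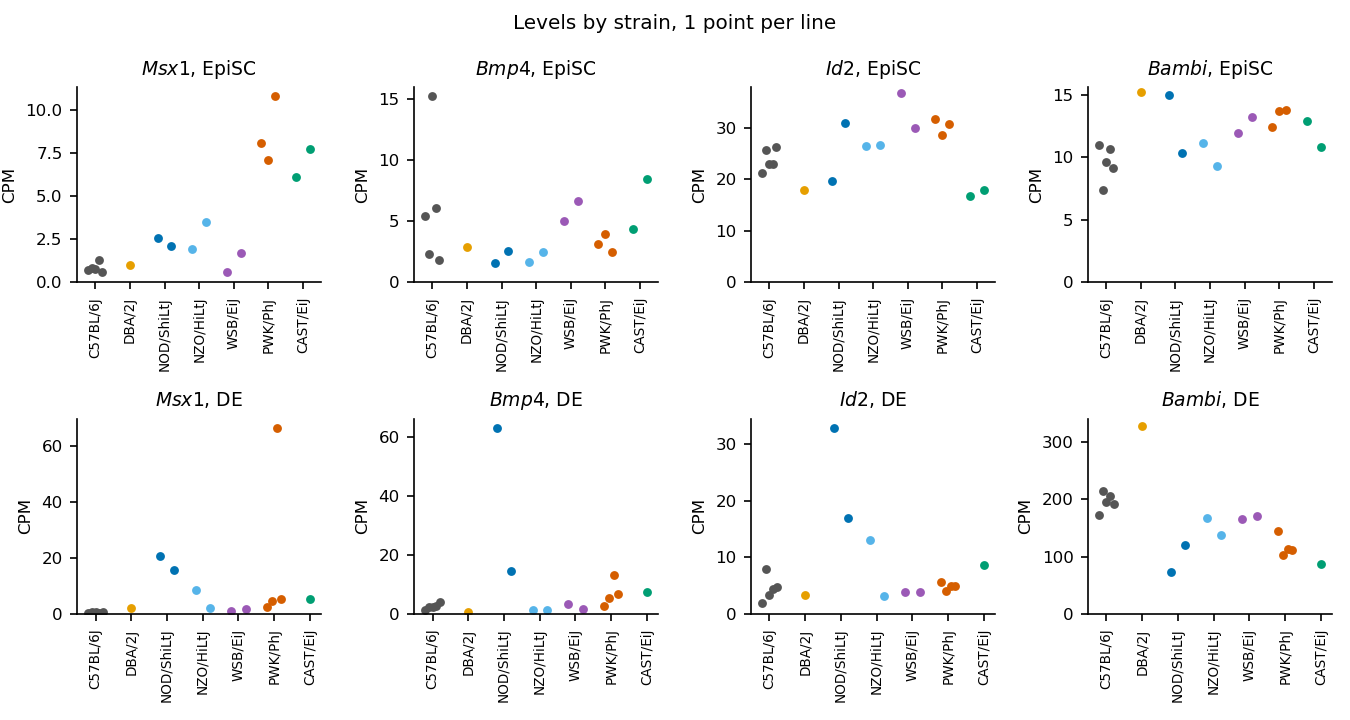
Level in CPM of Msx1, Bmp4, Id2 and Bambi in each line, by strain, in EpiSC and in DE, each point being 1 library. NOD/ShiLtJ DE stands high in Bmp4 (63.0 and 14.5 CPM) and Id2 (32.9 and 17 CPM) and low in Bambi, and 1 PWK/PhJ line stands high in Msx1 at 66.4 CPM.

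Whether a strain difference itself differed between EpiSC and DE was tested as an interaction. Of the 10 members 4 passed, Bambi, Bmp4, Id2 and Smad7, against 10.7% of all genes tested. Bambi had F = 12.2 (adjusted p = 0.000834), Bmp4 9.03 (0.0041), Id2 6.02 (0.0225) and Smad7 5.78 (0.0262, edgeR's quasi-likelihood test). With the cell line as a block 2 remained past the threshold, Bambi (adjusted p = 0.0324) and Smad7 (0.0493), and Bmp4 (0.0696) and Id2 (0.0742) did not. The same 2 passed without both NOD/ShiLtJ lines, where Bambi was at 0.00166 and Smad7 at 0.0169. Relative to C57BL/6J, Bambi rose less in DE in NOD/ShiLtJ (interaction -1.55 ± 0.27 log2, adjusted p = 0.00113) and in PWK/PhJ (-1.22 ± 0.22, adjusted p = 0.000854), and 6.96% and 6.67% of all genes passed in these strains. In EpiSC the PWK/PhJ lines had 12.5 to 13.8 CPM of Bambi, above the 7.38 to 11 CPM of C57BL/6J, while in DE they were below. Bmp4 had an interaction of 5.49 ± 1.01 in NOD/ShiLtJ (adjusted p = 0.00217), where its EpiSC levels of 1.54 and 2.57 CPM lay among the 1.78 to 15.2 CPM of C57BL/6J or below. That interaction was 3.91 without the DE library of AC576, 6.08 without that of AC595 and 4.82 without the EpiSC library of C57BL/6J line 4. Id2 had 2.28 ± 0.57 (adjusted p = 0.016) in NOD/ShiLtJ, lost without AC576 in either cell type (0.144 and 0.18), where without its DE library the interaction was 1.59. Smad7 had -1.20 ± 0.36 (adjusted p = 0.041) in PWK/PhJ, lost without any of 9 single libraries (adjusted p from 0.0513 to 0.104). Without single libraries the F test of Id2 was also lost in 3 cases, all NOD/ShiLtJ (adjusted p from 0.0609 to 0.163), and that of Smad7 in 3 cases, all PWK/PhJ (0.0616 to 0.0746). Msx1, which did not pass, had an interaction of 3.60 in NOD/ShiLtJ (adjusted p = 0.0698), which with the cell line as a block was 3.62 (adjusted p = 0.0252, edgeR). Its F test passed without the DE library of AC699 (adjusted p = 0.00913), and that of Id1 without the DE library of AC671 (0.00637). By edgeR 0 members passed in NZO/HiLtJ or WSB/EiJ, where 0.407% and 0.871% of all genes passed. At an unadjusted p under 0.05 the counts were 2 and 3, against 10.6% and 8.71% of all genes, and in DESeq2 0 passed in both.

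Across lines of 1 cell type the members varied together in different pairs. Of the 45 pairs in each cell type, 7 passed in EpiSC and 12 in DE (permutation test of Pearson's r, 100000 resamples, Benjamini-Hochberg over 90 relations). The pair Bmp2 and Bmp4 passed in both cell types and with opposite signs. In EpiSC r was 0.826 and rho 0.833 (permutation test, adjusted p = 0.0021 and 0.0027), with r = 0.851 without the 2 lines farthest from the median and 0.776 after strain means were removed. In DE r was -0.795 (permutation test, adjusted p = 0.00375) and rho -0.490 (adjusted p = 0.159), with r = -0.602 without the 2 farthest lines and -0.604 within strains. The NOD/ShiLtJ lines and AC699 had the 3 lowest Bmp2 levels and the 3 highest Bmp4 levels of all DE libraries. Msx1 and Msx2 varied together in DE (r = 0.831, rho = 0.811, permutation test, adjusted p = 0.0021 and 0.0027), with r = 0.696 without the 2 farthest lines. Both ran against Bmp2 in DE, with r = -0.836 for Msx1 (adjusted p = 0.00225) and r = -0.843 for Msx2 (adjusted p = 0.0009, permutation test). After strain means were removed these were -0.889 and -0.843. The Id genes gave a negative r between Id2 and Id3 in EpiSC (r = -0.729, permutation test, adjusted p = 0.0138), which was -0.576 without the 2 farthest lines and -0.0542 after strain means were removed. Id1 and Id3 gave r = 0.629 and Id1 and Id2 r = -0.618 in EpiSC (permutation test, adjusted p = 0.0356 and 0.0406), while rho, 0.515 and -0.534, did not pass (adjusted p = 0.136 and 0.122). Without the 2 farthest lines r was 0.30 and -0.322, so both were weaker without those lines. Within strains r was 0.516 and -0.637.

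**Figure D4:**
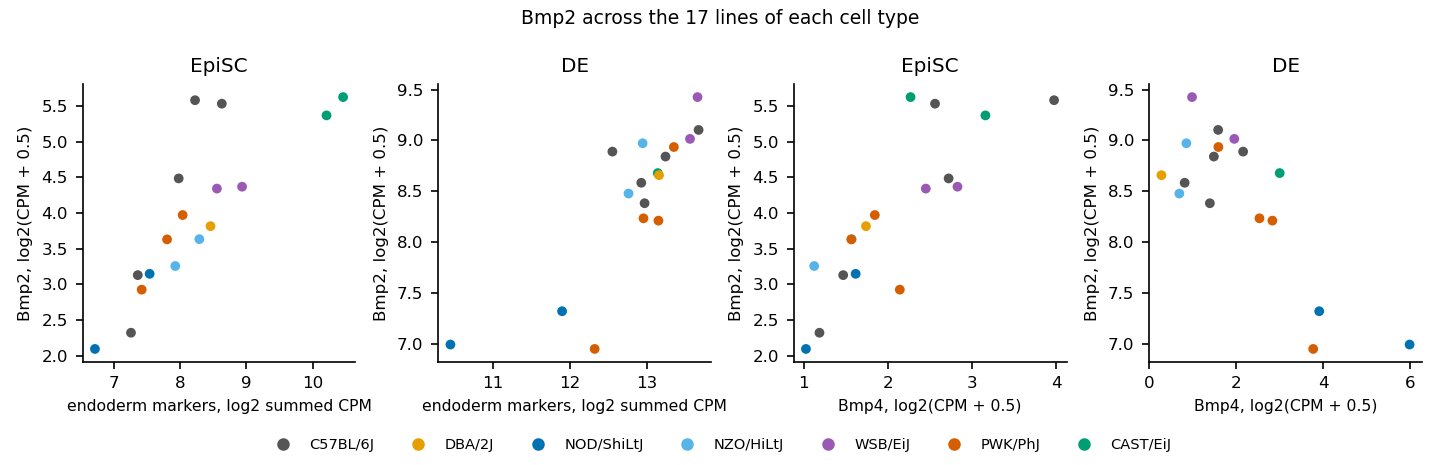
Bmp2 level, as log2 CPM, in each line against the summed level of 8 endoderm genes and against Bmp4, in EpiSC and in DE, coloured by strain. Bmp2 was higher where the endoderm sum was higher in both cell types (r = 0.821 and 0.828), and with Bmp4 the sign differed (r = 0.826 in EpiSC and -0.795 in DE). In DE, Cer1 had a median of 5616 CPM against 8037 CPM for the endoderm sum.

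The marker lists moved with the ligands and with other members. These 60 relations were computed after the data had been seen, and only some of those that passed are named. Bmp2 followed the endoderm list in EpiSC (r = 0.821, rho = 0.875, permutation test, adjusted p = 0.0006 and 0.0012), with r = 0.800 without the 2 farthest lines and 0.921 within strains. It did so in DE as well (r = 0.828, rho = 0.743, permutation test, adjusted p = 0.000771 and 0.00582), with 0.732 and 0.643. The list enters as a sum, and in DE 1 gene, Cer1, had a median of 5616 CPM against 8037 CPM for the sum. In EpiSC these medians were 49.1 and 263 CPM. Relations with the list without Cer1 were not tested. Bmp2 ran against the pluripotency list in both, with r = -0.813 in EpiSC and -0.801 in DE (permutation test, adjusted p = 0.000771 and 0.0006). Bmp4 followed the fibroblast list in DE (r = 0.819, rho = 0.782, permutation test, adjusted p = 0.0006 and 0.0048), but r was 0.208 within strains. The part of the fibroblast list in the Bmp4 level was not tested beyond the covariate above. Against the endoderm list in DE, Bmp4 had r = -0.782 (permutation test, adjusted p = 0.00585) and -0.749 within strains. There rho was -0.380 (adjusted p = 0.215), and r was -0.322 without the 2 farthest lines. With the pluripotency list in EpiSC, Bmp4 had r = -0.759 (permutation test, adjusted p = 0.0022) and -0.840 within strains. Id1 ran against the pluripotency list in EpiSC (r = -0.835, permutation test, adjusted p = 0.0006). In DE, Bambi ran against the fibroblast list (r = -0.794, permutation test, adjusted p = 0.000771), but r was -0.226 within strains. Msx1 and Msx2 followed the pluripotency list in DE (r = 0.741 and 0.804, permutation test, adjusted p = 0.00278 and 0.00135). Within strains these were 0.514 and 0.648.

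The genes whose pattern over the 17 lines was most like that of a member were taken as the 3 highest Pearson r among 8232 genes in EpiSC and 7926 in DE. For Bmp4 these were Itpr3 (r = 0.932), Cplx2 (0.921) and Plxnd1 (0.905) in EpiSC and Capn2 (0.938), Anxa5 (0.936) and Ap1s1 (0.928) in DE. For Msx1 they were Mettl2 (0.912), RP23-407K8.3 (0.909) and Rpl10a-ps1 (0.896) in EpiSC and Mmd (0.890), Sat1 (0.875) and Ptrf (0.871) in DE. For the mean of the 3 Id genes they were Tbc1d7 (0.937), Sccpdh (0.930) and Srgap1 (0.921) in EpiSC and mt-Nd2 (0.895), Coro1b (0.840) and Aplp1 (0.820) in DE. That mean is not a pattern shared by all 3. Id2 ran against Id1 and Id3 in EpiSC (r = -0.618 and -0.729), and no pair of the 3 passed in DE. No gene was shared between the cell types in these lists, but lists of only 3 genes can say little on sharing.

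A list of 60 other genes of the pathway was read in the same fit. Of the 54 tested, 18 were higher and 22 lower in DE and 14 did not pass, where 37.3% of all genes were higher and 39.9% lower, with a median log2 fold of -0.34. Among the other ligands 3 of 10 tested rose and 3 fell. Bmp7, a ligand known from kidney and eye development, went from 31.8 ± 26.5 to 186 ± 72 CPM (mean ± SD, n = 17 and 17; log2 fold 2.82 ± 0.25, adjusted p = 1.83e-11, edgeR). Gdf2, which encodes BMP9, had 23 counts summed over the EpiSC libraries and 2598 over the DE libraries (log2 fold 7.05 ± 0.56, adjusted p = 7.15e-13). Bmp3, whose product antagonizes other BMPs, had 52 and 741 counts (log2 fold 3.31 ± 0.55).

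Of 11 receptors and co-receptors, 2 rose and 6 fell. The type I receptor Bmpr1b had a log2 fold of -2.04 ± 0.25, the type II receptor Bmpr2 went from 89.4 ± 10.9 to 29.4 ± 5.17 CPM (log2 fold -1.64 ± 0.06, adjusted p = 3.15e-20), and the co-receptor Eng had -3.74 ± 0.40. All 4 signal transducers passed, 2 higher and 2 lower. Smad1 went from 34.7 ± 4.91 to 409 ± 117 CPM (log2 fold 3.48 ± 0.12, adjusted p = 1.16e-21, edgeR) and Smad4 rose by 0.57 ± 0.05 on the log2 scale. Smad5 went from 127.6 ± 16.8 to 61.1 ± 14.1 CPM (log2 fold -1.12 ± 0.09).

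Of 11 secreted antagonists tested, 4 rose, 4 fell and 3 did not pass. Cer1, a BMP and Nodal antagonist of anterior endoderm and one of the endoderm markers above, had a log2 fold of 6.54 ± 0.46. Grem1, which fibroblasts are known to express, had -3.10 ± 0.44. Nog, named here after its values were seen, did not pass between the cell types, but passed the F test over strains in DE (adjusted p = 0.00155), with 15.4 to 80.9 CPM in NOD/ShiLtJ and 0.944 to 5.30 CPM in C57BL/6J. Of 7 intracellular inhibitors 1 rose, Tob1 (1.55 ± 0.11), and 5 fell, among them the SMAD co-repressor Ski (-1.95 ± 0.07) and the phosphatase Ppm1a (-1.20 ± 0.06). Of 11 other targets tested, 6 rose, among them Prdm1 (4.03 ± 0.29), Gata3 (3.97 ± 0.36) and Hand1 (5.70 ± 0.86, from 50 counts in all to 3406), and 2 fell. Hand1 is also in the mesoderm list above, and its DE level was uneven. Its median there was 1.15 CPM and its highest library 54.0 CPM, with 2 libraries at 0. The F test of Hand1 over strains in DE passed (adjusted p = 0.00418, edgeR). Strain F tests passed for 17 of 51 in EpiSC and 16 of 50 in DE, and interactions for 5 of 54, against 40%, 22.3% and 10.7% of all genes.

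**Figure D5:**
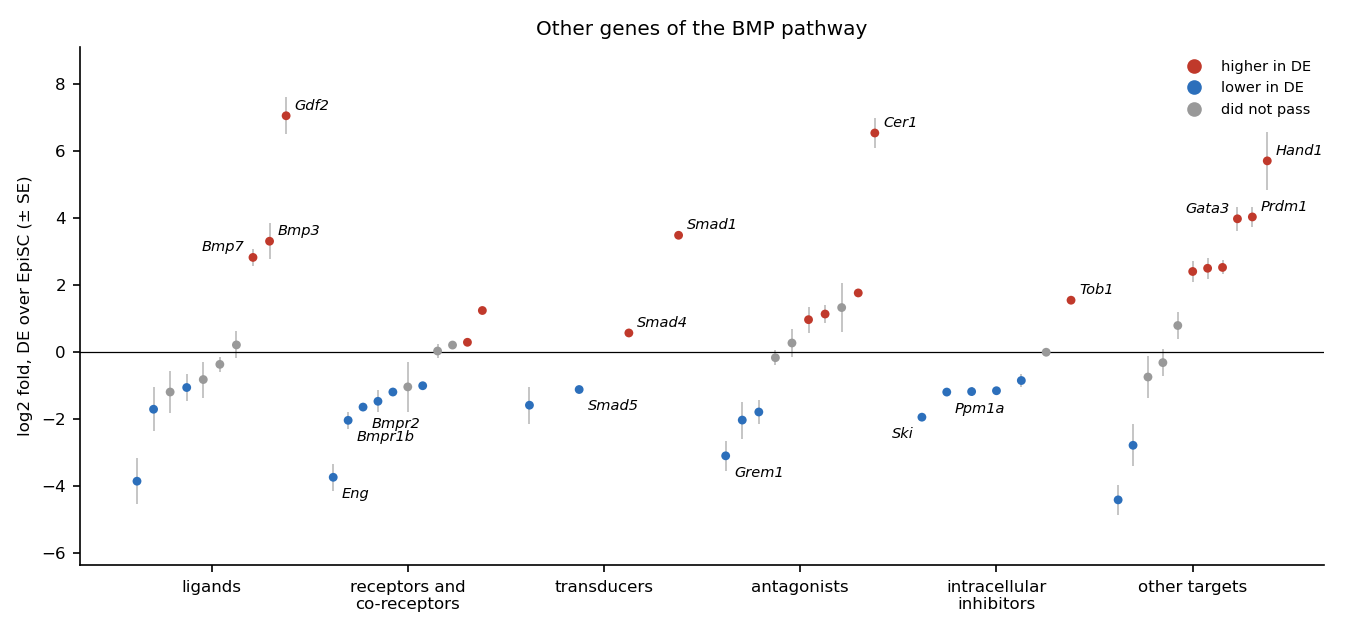
Log2 fold of DE over EpiSC with its standard error for tested genes of the pathway list, by class, 1 antagonist being left out, with the named genes labelled. Receptors and intracellular inhibitors lie mostly below 0 and the other targets mostly above it, while ligands, transducers and antagonists lie on both sides.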

How the data were processed

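RNA was measured in 34 libraries of mouse lines. The deposited values are raw read counts per gene, made by the authors with STAR 2.4, HTSeq 0.6.1 and the mm10 genome, and with DESeq2 named for their own analysis, per the submitters' processing notes. Neither the annotation release nor the strand setting is given in the sources used here. The reads of the EpiSC and DE libraries came from different kits, per the labels' protocols.

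Counts were divided by the library total to give CPM, and by merged exon length (GENCODE M21, GRCm38) to give RPKM. Genes that reached 10 counts in 3 or more libraries were tested with edgeR 4.0.16 (quasi-likelihood, TMM scaling, robust; limma 3.58.1, R 4.3.3), with Benjamini-Hochberg adjustment over all genes tested and a threshold of 0.05. The fit between cell types held strain as a term. Strain fits were made within a cell type, and the interaction over all 34 libraries with 1 mean per strain and cell type. The models were tested on simulated data. DESeq2 1.42.0, other scalings, filters, covariates, a block and left-out libraries were alternatives.

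The members and lists were chosen with earlier results of these data known. Named genes were the 10 members and, in each class of the pathway list, the 3 with the largest absolute log2 fold among those past the threshold with a mean of at least 1 CPM in either cell type. Genes most like a member were sought among those whose mean log2 CPM reached 4, predicted genes passed over. A line number pairs its EpiSC and DE libraries by origin, and over 14 lines the correlation of paired deviations from the group means had a median of 0.0357 (0.0014 to 0.147). No libraries agreed within sampling noise. Protein sequences were not used here. A gene that the naming rule picks is not reported here.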

Additional observations from a re-analysis of the deposited data

Results flagged for a closer look

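In 30 groups of 4 or 5 lines, 2 held a line far from the others by Dixon's test, where chance flags about 1 in 20. Msx1 was at 66.4 CPM in the DE library of the PWK/PhJ line AC699, with the other 3 lines at 2.38 to 5.36 CPM. Msx2 was at 1.24 CPM in the EpiSC library of C57BL/6J line 5-1, with the other 4 at 0.189 to 0.450 CPM.

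Strain differences that themselves differed between EpiSC and DE were found by an interaction test for Bambi (F = 12.2), Bmp4 (F = 9.03), Id2 (F = 6.02) and Smad7 (F = 5.78). With the cell line as a block Bmp4 (adjusted p = 0.0696) and Id2 (adjusted p = 0.0742, edgeR) did not pass. By strain, the interaction was -1.22 log2 for Bambi and -1.20 for Smad7 in PWK/PhJ. In NOD/ShiLtJ it was -1.55 for Bambi, 5.49 for Bmp4 and 2.28 for Id2. Kit and cell type cannot be told apart in these tests.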

How the results depend on the processing

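No result changed direction among those called. The members called between the cell types numbered 6 under the cell line as a replicate block and 6 to 7 without single libraries. In the interaction F test 4 members passed, with 2 under the replicate block, 2 without both NOD/ShiLtJ lines (chosen after seeing the data), 7 in DESeq2 and 9 with no filter. Beside the calls of Bmp4, Id2 and Msx1 given above, the block changed no other call. Genes called over all of the interaction went from 2227, which was 10.7% of those tested, to 1104 under the block and 4155 with no filter. For the other settings, and for most counts that follow, the share of all genes is not given here. Such counts of members cannot be read against a background. In EpiSC, PWK/PhJ had 2 members called and 4 without NOD/ShiLtJ, NOD/ShiLtJ, NZO/HiLtJ and WSB/EiJ each had 1 and 2 in DESeq2, WSB/EiJ also 2 without NOD/ShiLtJ, and CAST/EiJ had 5 and 3 with no filter. In DE, PWK/PhJ had 4 and 7 with no filter, NOD/ShiLtJ had 6 and 0 with the fibroblast covariate (which nearly coincides with that strain), NZO/HiLtJ had 0 and 2 with no filter or in DESeq2, and WSB/EiJ had 0 and 1 with no filter. By strain, the interaction had 2 in PWK/PhJ and 4 with no filter, 0 in NZO/HiLtJ and 2, and 0 in WSB/EiJ and 1. The cause was not tested.

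Without single libraries, members called ran from 2 to 4 in the EpiSC F test and from 6 to 9 in that of DE. In EpiSC contrasts they ran from 2 to 4 in PWK/PhJ, 0 to 3 in NOD/ShiLtJ, 0 to 2 in NZO/HiLtJ, 1 to 2 in WSB/EiJ and 1 to 5 in CAST/EiJ. In DE they ran from 4 to 6 in PWK/PhJ, 1 to 6 in NOD/ShiLtJ, 0 to 1 in NZO/HiLtJ and 0 to 0 in WSB/EiJ. In the interaction they ran from 3 to 6 in the F test, 1 to 3 in PWK/PhJ, 2 to 4 in NOD/ShiLtJ, 0 to 1 in NZO/HiLtJ and 0 to 1 in WSB/EiJ. Of single log2 folds of members, 3993 values under alternatives kept direction and side of the threshold, 70 passed newly and 42 no longer passed. Of F tests of members, 808 kept their side, 34 passed newly and 27 no longer passed. Of 90 correlations, 33 moved by 0.3 or more after strain means were removed and 57 by less. Msx2 rests on few counts, and Msx1 and Bmp4 on low ones.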
